A study of Homo sapiens with 6 samples.

Results

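The genes described here are regulators and targets of YAP and TEAD, measured by RNA sequencing in the established human glioma cell line U251, treated for 24 h with 6-shogaol, a pungent ginger compound. The members were chosen by gene symbol and comprise the coactivators YAP1 and WWTR1, the DNA-binding factors TEAD1 and TEAD4, the kinase LATS2, the adaptors AJUBA and AMOTL2, and the targets ANKRD1, CCN1 and CCN2. All 10 were found in the deposited tables, among 60612 genes, and the tables use the names CCN1 and CCN2 for the genes formerly called CYR61 and CTGF. The study had 3 libraries of treated cells, with a dose labelled as 60 and a unit written "μm", and 3 control libraries of cells kept without the compound. Both groups are given as wild type and were collected at 24 h, and no vehicle is named for the controls. All 6 libraries are of 1 cell line, and the labels do not say whether the replicates came from separate cultures. The p-values therefore rest on the spread among these libraries alone, and that spread may be technical. Where groups are compared, values are CPM, counts scaled to library size by TMM. Where different genes are compared, values are FPKM, which are also scaled to transcript length, as the authors deposited them.

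YAP1 and WWTR1 (also called TAZ, and not the gene whose symbol is TAZ) are coactivators that carry no DNA-binding domain and act through the TEAD family. In the Hippo pathway the MST kinases activate LATS1 and LATS2, which phosphorylate both coactivators and hold them in the cytoplasm, and stiff or spread cells release them into the nucleus. Because this control acts largely on protein phosphorylation and location, transcript levels of YAP1 and WWTR1 do not measure pathway activity, and neither phosphorylation nor location was measured here. The secreted matricellular proteins CCN1 and CCN2 and the nuclear and sarcomeric ankyrin repeat protein ANKRD1 are widely used as transcriptional readouts of YAP and TEAD, and LATS2, AJUBA and AMOTL2 are feedback regulators of the pathway.

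TEAD factors bind the letters GGAATG, or CATTCC on the other strand. These letters were looked for on both strands of the 250 bases before the start of each gene, in RefSeq sequence of GRCh38.p14. Windows were found for 7 of the 10 members (10 windows, since some genes have more than 1 start), and 5 of the 7 held at least 1 match, in windows of YAP1, AJUBA, AMOTL2, ANKRD1 and CCN2. Among all 35116 windows 11.9% held at least 1 match, 0.94% at least 2 and 0.0826% at least 3. These shares count windows, while 5 of 7 counts genes, so they are not on one scale. The other windows of AJUBA and AMOTL2, and those of WWTR1 and LATS2, held no match. The windows of ANKRD1 and CCN2 are shown because both genes are standard readouts of the same factors and differed in what the libraries showed. The ANKRD1 window lies on the minus strand at chr10:90921088-90921337 and holds 2 matches, and the CCN2 window lies on the minus strand at chr6:131951373-131951622 and holds 3. Capitals mark the matches, and each line runs 5′ to 3′ and ends at the base before the start.
ANKRD1: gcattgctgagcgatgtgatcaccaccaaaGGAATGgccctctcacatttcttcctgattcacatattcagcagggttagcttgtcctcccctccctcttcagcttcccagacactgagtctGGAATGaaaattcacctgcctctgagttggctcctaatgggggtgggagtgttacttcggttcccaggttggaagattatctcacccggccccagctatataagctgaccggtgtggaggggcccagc
CCN2: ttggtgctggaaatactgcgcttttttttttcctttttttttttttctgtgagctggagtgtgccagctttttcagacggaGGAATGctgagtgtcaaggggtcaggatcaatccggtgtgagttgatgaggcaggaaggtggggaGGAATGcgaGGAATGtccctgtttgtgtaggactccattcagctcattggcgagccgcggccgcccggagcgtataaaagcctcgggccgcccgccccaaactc
The matches in ANKRD1 begin at positions -220 and -128 counted from the start, and those in CCN2 at -169, -104 and -95. A match describes the letters only and is not evidence of binding in these cells. None of the 10 member windows held a CArG box, the element bound by SRF, against 1.16% of all windows.

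Of the 10 members 1 was called, ANKRD1, which was lower with 6-shogaol (edgeR quasi-likelihood fit, p adjusted by Benjamini-Hochberg over 19279 genes, threshold 0.05). EdgeR called 0 members higher, and so did DESeq2, limma on FPKM and an unadjusted edgeR p under 0.05, while each of these gave 1 member lower. Over all tested genes edgeR called 3.38% in either direction, 1.67% higher and 1.71% lower, and the shares were 9.68% in DESeq2, 6.04% in limma on FPKM and 20.4% at an unadjusted edgeR p under 0.05. A count of 1 in 10 members (10.0%) is a single gene and says little about the members as a group. The CPM of the groups did not overlap for 1 member, again ANKRD1, while 27.9% of all tested genes had groups that did not overlap. The median log2 fold change of the members was -0.06, against a median of 0 over all tested genes, and their median absolute log2 fold change was 0.09, against 0.22.

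**Figure D1:**
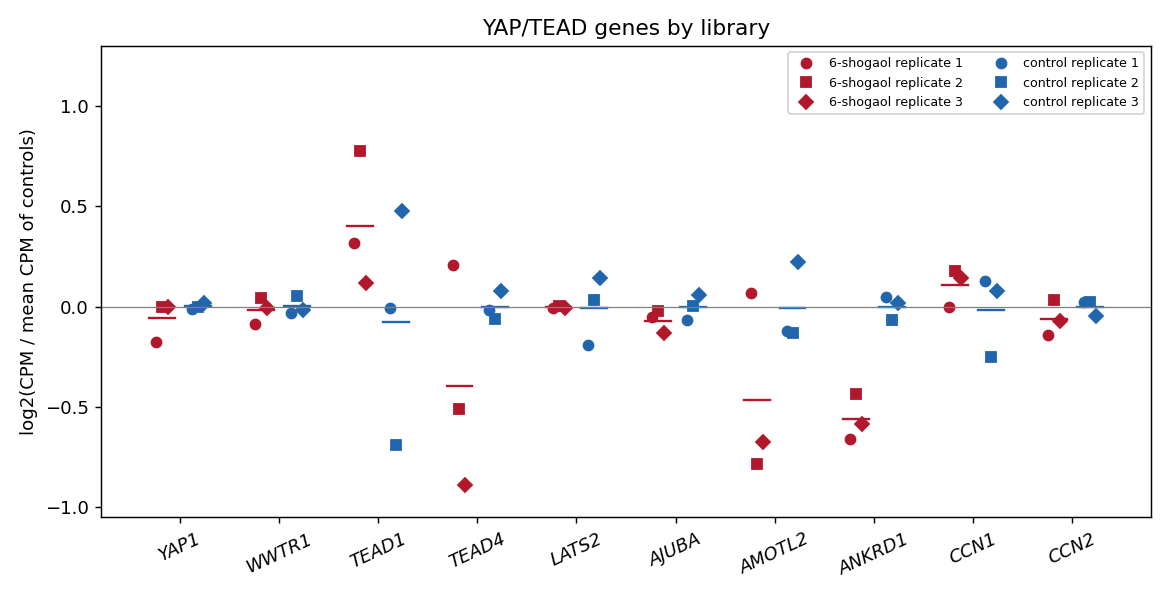
CPM of each of the 10 genes in each library, as log2 of its ratio to the mean of the controls, with treated libraries in red to the left of controls in blue and short lines for the mean of the log2 ratios. ANKRD1 is the only gene whose red and blue points do not overlap, and TEAD1, TEAD4 and AMOTL2 spread widely within a group.

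The libraries held 43516840 to 55225898 counts with 6-shogaol and 52132767 to 60018999 counts in controls. 6-shogaol replicate 1 stood apart on the second principal component (61.8, the other libraries from -33.9 to 22.6), so that results are given without it where it matters. Of the 9 glial and neural stem markers checked, VIM, NES, SOX2 and CD44 were at 232 CPM or more in every library. Others were low, with SLC1A3 at 4.33 to 10.4 CPM across the libraries. S100B, AQP4 and OLIG2 stood at no more than 1.35, 0.445 and 0.322 CPM in any library. Of the 9 markers 8 were tested, and edgeR called 2 lower with 6-shogaol, GFAP and NES (adjusted p = 0.00655 and 0.0484). Over all tested genes edgeR called 3.38%, and 2 genes say little about the markers as a group. GFAP, the astrocyte filament gene, stood at 9.05, 8.39 and 9.19 CPM with 6-shogaol, against 33.9, 24.2 and 23.8 CPM in controls. Of 9 markers of other cell types 7 were tested, and edgeR called 1 lower, the collagen gene COL1A1 (adjusted p = 0.0387), again beside 3.38% of all tested genes. The macrophage marker CD68 stood at 15.6, 25.2 and 28.2 CPM with 6-shogaol, against 14.2, 12.7 and 14.7 CPM in controls, and DESeq2 but not edgeR called it higher (adjusted p = 0.014 and 0.117). The neuronal marker SYT1 stood at 56.5, 71.3 and 58.3 CPM with 6-shogaol, against 50.7, 50.5 and 48.7 CPM in controls, also without overlap, and neither tool called it (edgeR adjusted p = 0.145, DESeq2 adjusted p = 0.0769). The leukocyte marker PTPRC and the endothelial marker PECAM1 were too low to be tested, at most 0.266 and 0.137 CPM in any library. The part of these markers in the results was not tested. The common biological coefficient of variation was 25.3%.

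By the mean over the 6 libraries, transcripts of the secreted targets and of the coactivators were the most abundant members per length. CCN2 averaged 44.8 ± 2.01 FPKM with 6-shogaol and 46.1 ± 0.936 FPKM in controls (SD, n = 3 each), and CCN1 came next at 26.6 ± 1.34 and 24.3 ± 3.42 FPKM in treated and control libraries. YAP1 (19.2 ± 1.01 FPKM treated, 19.7 ± 0.351 FPKM control) and WWTR1 (19.4 ± 0.542 FPKM treated, 19.3 ± 0.558 FPKM control) stood at nearly one level, with overlapping ranges in both groups. TEAD1, at 21.4 ± 4.95 FPKM treated and 15.7 ± 6.16 FPKM control, overlapped WWTR1 in both groups. Its mean was above those of the coactivators with 6-shogaol and below them in controls. AMOTL2, ANKRD1 and AJUBA formed a lower tier, LATS2 lay below them at 4.58 ± 0.0701 FPKM with 6-shogaol and 4.52 ± 0.537 FPKM in controls, and TEAD4 was the lowest at 2.08 ± 0.871 and 2.56 ± 0.156 FPKM in treated and control libraries. The ranges of CCN2 and CCN1, of CCN1 and YAP1, of AJUBA and LATS2, and of LATS2 and TEAD4 were separate in each group. ANKRD1 and AJUBA overlapped with 6-shogaol but not in controls, where every ANKRD1 value was the higher.

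**Figure D2:**
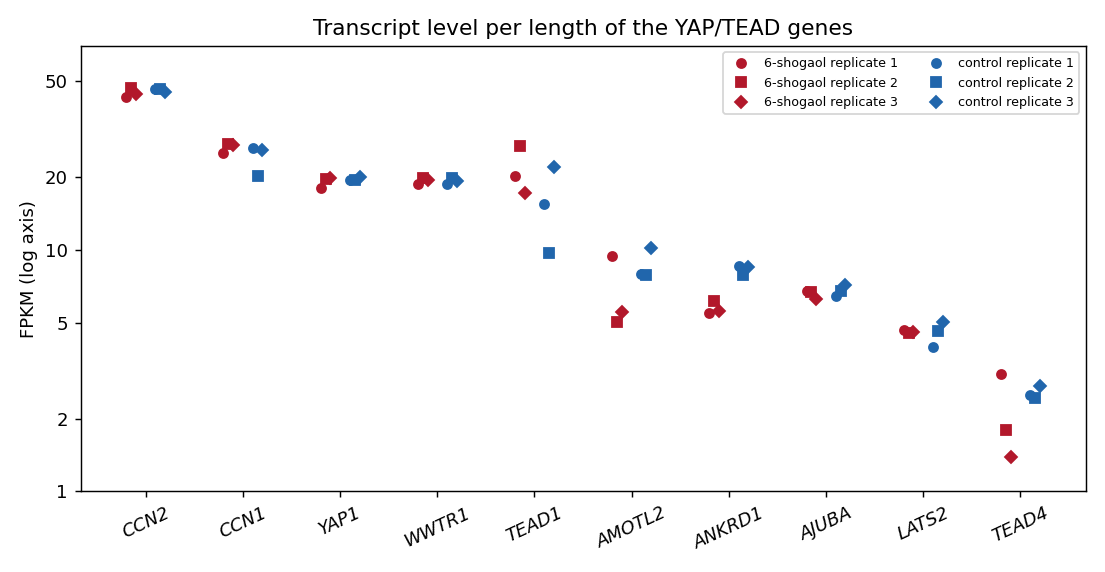
FPKM of the 10 genes on a log axis, ordered by their mean over the 6 libraries, with treated libraries in red to the left of controls in blue and 1 symbol for each replicate number. CCN2 leads at 43.0 to 47.0 FPKM across the libraries and TEAD4 is last at 1.39 to 3.06 FPKM.

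The coactivators did not differ detectably between treated and control cells. YAP1 (ENSG00000137693, chromosome 11, 102110447 to 102233424 in GRCh38, plus strand) stood at 131, 148 and 148 CPM in 6-shogaol replicates 1, 2 and 3, against 147, 148 and 150 CPM in control replicates 1, 2 and 3. Replicates 2 and 3 of the treated cells lay at the control level and replicate 1 lay below it. The log2 fold change of YAP1 was -0.06 (SE 0.07, 95% interval -0.22 to 0.11, edgeR adjusted p = 0.716), an interval that spans 0.858-fold to 1.08-fold. WWTR1 (ENSG00000018408, chromosome 3, 149517235 to 149736714, minus strand) stood at 181, 198 and 191 CPM with 6-shogaol, against 188, 199 and 190 CPM in controls. Its groups overlapped almost wholly, at a log2 fold change of -0.02 (SE 0.06, 95% interval -0.17 to 0.13, edgeR adjusted p = 0.928). WWTR1 shares 9.45% of its exon length with WWTR1-AS1 on the other strand, and the strand used in counting is not given in the sources used here. The WWTR1 to YAP1 ratio of FPKM was 1.01 ± 0.0322 with 6-shogaol and 0.979 ± 0.0339 in controls (SD, n = 3 each, two-sided exact permutation test, p = 0.3, where 0.1 is the smallest possible).

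TEAD1 varied widely among the libraries of both groups, and TEAD4 among the treated libraries. TEAD1 (ENSG00000187079, chromosome 11, 12674421 to 12944737, plus strand) stood at 249, 343 and 217 CPM with 6-shogaol, against 199, 124 and 278 CPM in controls. Control replicates 2 and 3 differed from each other by more than the group means did, and control replicate 3 exceeded 2 of the treated libraries. The log2 fold change of TEAD1 was 0.43 (SE 0.29, 95% interval -0.26 to 1.12, edgeR adjusted p = 0.476), and it ran from 0.18 without control replicate 2 to 0.74 without control replicate 3, with no call in either fit. The lowest TEAD1 count was 7268, so counting error of about 1.17% is small beside this spread. TEAD4 (ENSG00000197905, chromosome 12, 2959330 to 3040676, plus strand) stood at 8.06, 4.9 and 3.77 CPM with 6-shogaol, against 6.89, 6.67 and 7.37 CPM in controls. 6-shogaol replicate 1 was above every control and replicates 2 and 3 were below every control. With all libraries the log2 fold change of TEAD4 was -0.32 (SE 0.27, 95% interval -0.96 to 0.32, edgeR adjusted p = 0.57), and it ran from -0.68 without 6-shogaol replicate 1 (edgeR adjusted p = 0.0847) to -0.1 without 6-shogaol replicate 3 (edgeR adjusted p = 0.887).

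TEAD2 and TEAD3, which are outside the 10 members, complete the TEAD family. TEAD2 (ENSG00000074219) fell to 43.3, 46.4 and 40.5 CPM with 6-shogaol, against 61.9, 54.7 and 57.4 CPM in controls, with no overlap of the groups. Its log2 fold change was -0.42 (SE 0.09, edgeR adjusted p = 0.0492), close to the threshold, and the call was lost when any 1 library was left out (edgeR adjusted p from 0.0722 to 0.162). TEAD2 shares 10.7% of its exon length with CD37 on the other strand. TEAD3 stood at 33.0, 30.5 and 30.0 CPM with 6-shogaol, against 33.6, 30.2 and 29.9 CPM in controls (edgeR adjusted p = 0.991). Of the summed FPKM of the 4 TEAD genes, TEAD1 made up 44.6%, 53.7% and 44.7% with 6-shogaol, against 34.8%, 27.2% and 44.6% in controls. TEAD2 made up 27.8%, 26.0% and 29.9% with 6-shogaol, against 38.9%, 42.9% and 33.0% in controls. The TEAD1 share of control replicate 3 equalled that of 6-shogaol replicate 1 to the digits given, and the TEAD2 shares of the groups were separate (two-sided exact permutation test, p = 0.1 for each, the smallest possible). The 2 shares are parts of one sum and are not independent. The sum itself was 44.6 ± 5.81 FPKM with 6-shogaol and 43.2 ± 6.92 FPKM in controls (SD, n = 3 each, exact permutation p = 0.7).

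Among the feedback regulators LATS2 and AJUBA kept close values in both groups, while AMOTL2 divided the treated libraries. LATS2 (ENSG00000150457, chromosome 13, 20973036 to 21061586, minus strand), the kinase that phosphorylates YAP1 and WWTR1, stood at 30.1, 30.3 and 30.1 CPM with 6-shogaol, against 26.5, 30.9 and 33.3 CPM in controls. All treated values lay inside the control range, and the log2 fold change was -0.0044 (SE 0.1, 95% interval -0.24 to 0.23, edgeR adjusted p = 0.987). AJUBA (ENSG00000129474, chromosome 14, 22971177 to 22982551, minus strand), a LIM-domain protein that holds LATS kinases at junctions, stood at 45.9, 46.9 and 43.4 CPM with 6-shogaol, against 45.5, 47.8 and 49.6 CPM in controls. Its groups overlapped and its log2 fold change was -0.07 (SE 0.07, 95% interval -0.24 to 0.1, edgeR adjusted p = 0.663). AMOTL2 (ENSG00000114019, chromosome 3, 134355874 to 134374594, minus strand), an angiomotin that binds YAP1 and retains it outside the nucleus, stood at 64.8, 35.9 and 38.8 CPM with 6-shogaol, against 57.0, 56.6 and 72.2 CPM in controls. 6-shogaol replicate 1 lay inside the control range and replicates 2 and 3 lay below all controls. For TEAD4 replicates 2 and 3 also lay below all controls, but replicate 1 lay above them. With all libraries the log2 fold change of AMOTL2 was -0.41 (SE 0.23, 95% interval -0.96 to 0.13, edgeR adjusted p = 0.38). Without 6-shogaol replicate 1 it was -0.73 and was called (edgeR adjusted p = 0.042), in a fit that called 5.07% of all genes, and in the fits that left out another library it ran from -0.47 to -0.26 with no call. The part of 6-shogaol replicate 1 in the values of AMOTL2 and TEAD4 was not tested further.

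The angiomotin family was measured whole, since AMOT and AMOTL1 were also read. AMOTL1 stood at 75.0, 69.9 and 69.6 CPM with 6-shogaol, against 52.8, 54.5 and 60.5 CPM in controls, with no overlap, a log2 fold change of 0.35 (SE 0.08) and an edgeR adjusted p of 0.063. DESeq2 called it (adjusted p = 0.00723). AMOT stood at 61.8, 68.5 and 60.3 CPM with 6-shogaol, against 72.6, 74.6 and 83.2 CPM in controls (log2 fold change -0.27, edgeR adjusted p = 0.137). Of the summed FPKM of the 3 angiomotins, AMOTL1 made up 29.2%, 33.2% and 33.8% with 6-shogaol, against 22.6%, 23.0% and 21.6% in controls (two-sided exact permutation test, p = 0.1, the smallest possible). AMOTL2 made up 42.3%, 28.5% and 31.6% with 6-shogaol, against 40.8%, 40.0% and 43.3% in controls (exact permutation p = 0.3). The exact permutation p was 0.6 for the AMOT share and 0.5 for the sum. The shares are parts of one sum and are not independent.

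Of the 3 targets used as readouts, ANKRD1 was lower with 6-shogaol and CCN1 and CCN2 were not detectably different. ANKRD1 (ENSG00000148677, chromosome 10, 90912096 to 90921087, minus strand) fell to 11.2, 13.1 and 11.8 CPM with 6-shogaol, against 18.3, 16.9 and 17.9 CPM in controls. Every treated library lay below every control, and the counts behind these values were 635, 655 and 512 with 6-shogaol, against 945, 986 and 1073 in controls. The log2 fold change was -0.56 (SE 0.1, 95% interval -0.8 to -0.31, edgeR adjusted p = 0.0383), a level 0.68 times that of controls. In RNA from whole cultures, less ANKRD1 RNA per cell and fewer cells with it cannot be told apart. Its direction and size held when each library was left out (-0.62 to -0.51), but none of those 6 fits called it (edgeR adjusted p from 0.0532 to 0.137). DESeq2 called it (adjusted p = 0.000429), as did limma on log2(FPKM + 1) (adjusted p = 0.0177).

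CCN1 (ENSG00000142871, chromosome 1, 85580761 to 85583950, plus strand), a ligand of integrins, stood at 107, 121 and 118 CPM with 6-shogaol, against 117, 89.9 and 113 CPM in controls. Control replicate 2 was the lowest library and the other 5 lay close together. The log2 fold change of CCN1 was 0.11 (SE 0.11, 95% interval -0.15 to 0.38, edgeR adjusted p = 0.642), and 0.0023 without control replicate 2. CCN2 (ENSG00000118523, chromosome 6, 131948176 to 131951372, minus strand), a matrix-associated growth regulator, stood at 116, 131 and 122 CPM with 6-shogaol, against 130, 130 and 124 CPM in controls. Its groups overlapped, with a log2 fold change of -0.06 (SE 0.07, 95% interval -0.23 to 0.1, edgeR adjusted p = 0.678), which spans 0.854-fold to 1.07-fold. CCN2 shares 8.34% of its exon length with a gene on the other strand. The interval of ANKRD1 lies wholly below those of CCN1 and CCN2. The ANKRD1 to CCN2 ratio of FPKM was 0.127, 0.13 and 0.126 with 6-shogaol, against 0.183, 0.169 and 0.188 in controls, and the ANKRD1 to CCN1 ratio was 0.215 ± 0.00852 and 0.345 ± 0.0366 in treated and control libraries (SD, n = 3 each). Neither ratio overlapped between the groups (two-sided exact permutation test, p = 0.1 for each, the smallest that 3 libraries against 3 allow). The ratios reuse the same library values as the fold changes and add no separate support.

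**Figure D3:**
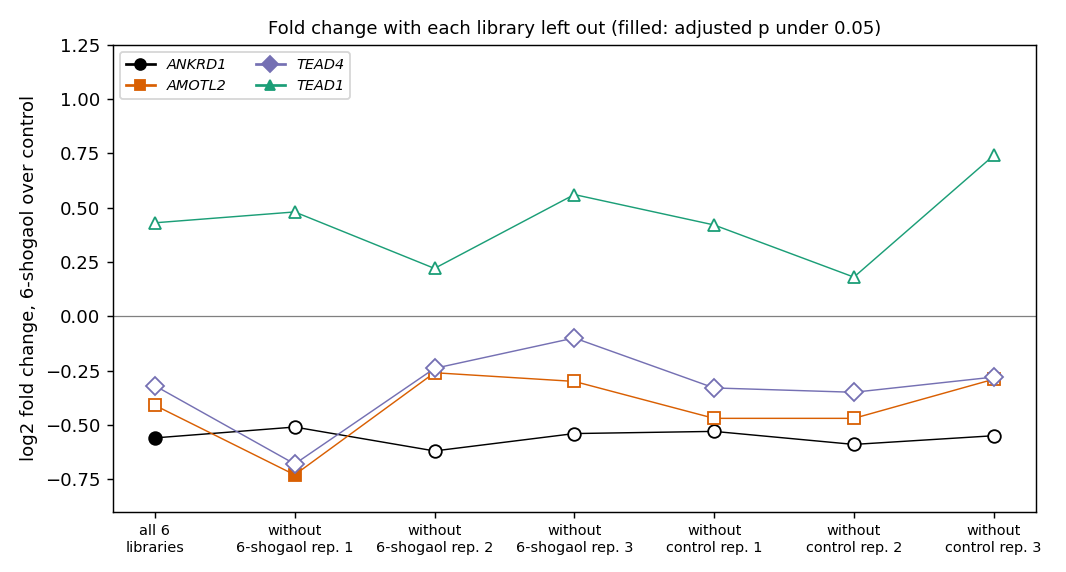
Log2 fold change (6-shogaol over control) of ANKRD1, AMOTL2, TEAD4 and TEAD1 with all 6 libraries and with each library left out, filled where the edgeR adjusted p is under 0.05. ANKRD1 stays between -0.62 and -0.51 when a library is left out, while AMOTL2 and TEAD4 reach -0.73 and -0.68 without 6-shogaol replicate 1.

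The other genes of the pathway are given by lists of known genes, beside the 3.38% of all tested genes that edgeR called. The shares of all tested genes were 20.4% at an unadjusted edgeR p under 0.05, 9.68% in DESeq2 and 6.04% in limma on FPKM. None of 17 Hippo kinases and scaffolds was called by edgeR, against 2 higher and 1 lower at an unadjusted p under 0.05. DESeq2 called 1 of them lower and limma on FPKM called 0. The 1 called by DESeq2, named after its value was seen, was MAP4K4, a kinase that can activate LATS kinases, at 257, 226 and 233 CPM with 6-shogaol, against 276, 283 and 287 CPM in controls (DESeq2 adjusted p = 0.0441, edgeR adjusted p = 0.107). STK4, the MST1 kinase, stood at 63.4, 56.6 and 69.3 CPM with 6-shogaol, against 53.0, 56.8 and 21.4 CPM in controls (edgeR adjusted p = 0.433), control replicate 3 alone being low. NF2, which encodes the scaffold merlin, stood at 102, 44.7 and 47.2 CPM with 6-shogaol, against 46.4, 95.8 and 96.9 CPM in controls (edgeR adjusted p = 0.733), so that each group held libraries at both levels. In 6-shogaol replicate 1 NF2, AMOTL2 and TEAD4 were all higher than in the other treated libraries.

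Of 11 junction and adaptor regulators 10 were tested and edgeR called 0. At an unadjusted edgeR p under 0.05, 3 were higher and 2 lower, beside 20.4% of all tested genes in either direction. DESeq2 called 1 higher and 1 lower, and limma on FPKM called 0. WTIP, an AJUBA family protein, stood at 7.33, 7.42 and 5.9 CPM with 6-shogaol, against 8.96, 9.75 and 10.2 CPM in controls (log2 fold change -0.48, edgeR adjusted p = 0.113, DESeq2 adjusted p = 0.0389). Of 6 other TEAD and VGLL genes 5 were tested and TEAD2 was the 1 called. VGLL4, a cofactor that competes with YAP1 for TEAD, stood at 91.2, 111 and 109 CPM with 6-shogaol, against 135, 145 and 128 CPM in controls, at -0.39 on the log2 fold change scale (SE 0.1), which edgeR did not call (adjusted p = 0.0768) and DESeq2 did (adjusted p = 0.00867). VGLL4 shares 22.1% of its exon length with ATG7 on the other strand.

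Other targets described for YAP and TEAD moved in both directions. Of 21 tested, 2 rose and 2 fell in edgeR (19.0% called, against 3.38% of all genes), and their median log2 fold change was -0.02. The list was chosen with earlier results of these data known, so this share does not test the targets as a group. PTPN14, among these 21, is counted with the junction regulators too. DOCK5, an activator of RAC, rose to 122, 114 and 121 CPM with 6-shogaol, against 89.4, 91.1 and 92.1 CPM in controls (log2 fold change 0.39, SE 0.06, edgeR adjusted p = 0.0274). THBS1, the matricellular protein thrombospondin 1, fell to 1200, 1070 and 1130 CPM with 6-shogaol, against 1650, 1760 and 1830 CPM in controls (log2 fold change -0.62, SE 0.07, edgeR adjusted p = 0.00828), and in the fit without control replicate 2 it was not called (edgeR adjusted p = 0.055). TGFB2, a TGF-beta ligand, fell to 32.9, 33.9 and 33.5 CPM with 6-shogaol, against 42.6, 43.4 and 46.4 CPM in controls (log2 fold change -0.4, SE 0.07, edgeR adjusted p = 0.0356), with 26.6% of its exon length shared with TGFB2-OT1 on the same strand. For none of these 3 genes did the groups overlap, as for 27.9% of all tested genes. The 3 were named because edgeR called them, so the lack of overlap adds no separate support. DOCK5 and TGFB2 were called in 1 of the 6 fits without a library each, that without 6-shogaol replicate 1. GADD45A, a growth arrest gene, stood at 39.7, 32.9 and 36.4 CPM with 6-shogaol, against 29.2, 17.6 and 20.6 CPM in controls. Its log2 fold change of 0.69 was not called by edgeR with all libraries (adjusted p = 0.0981), though DESeq2 called it (adjusted p = 0.00715), and was 0.93 and called without control replicate 1 (edgeR adjusted p = 0.0495).

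**Figure D4:**
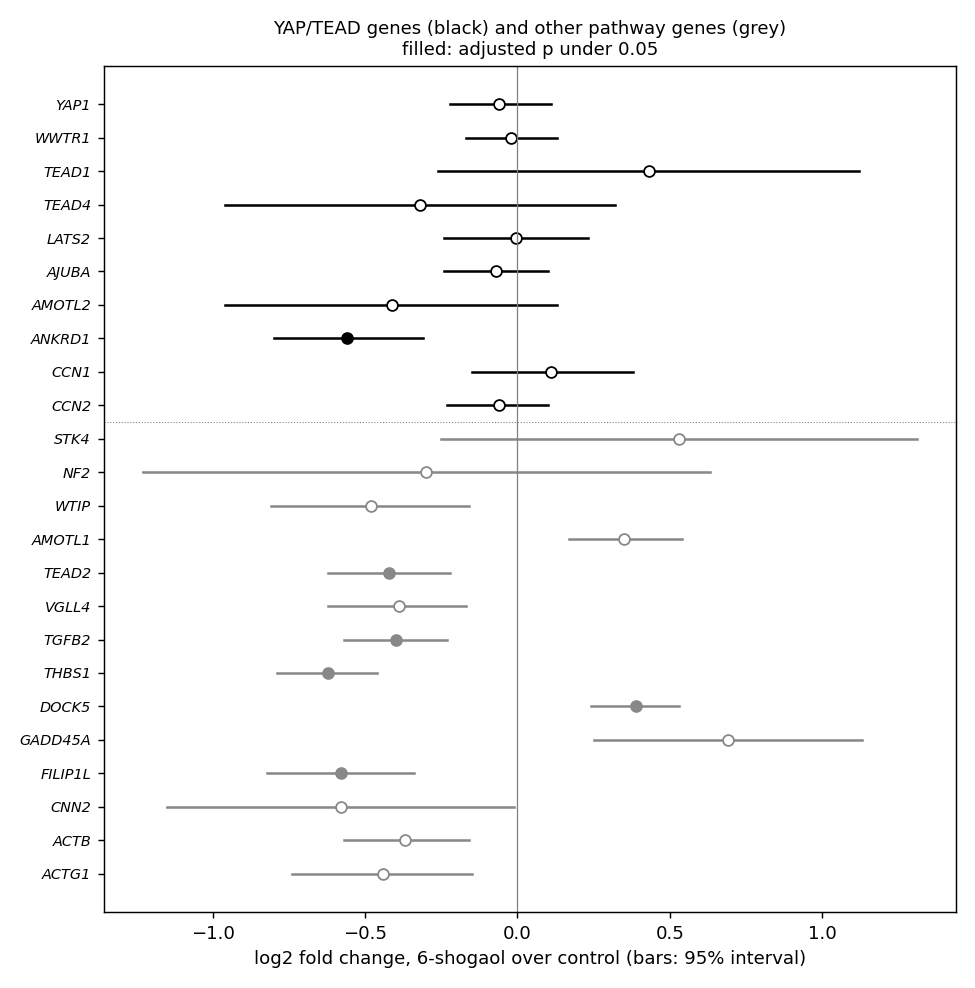
Log2 fold change (6-shogaol over control) with its 95% interval for the 10 genes in black and for other named pathway genes in grey, filled where the edgeR adjusted p is under 0.05. Among the targets ANKRD1, THBS1 and TGFB2 lie below 0 and DOCK5 and GADD45A above it, with CCN1 and CCN2 at 0.11 and -0.06. GADD45A, at 0.69, is not filled.

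ANKRD1, CCN1 and CCN2 can also respond to SRF and its MRTF cofactors, which sense actin. Of 16 cytoskeletal targets of SRF 1 was called, FILIP1L, which fell to 28.4, 29.0 and 27.9 CPM with 6-shogaol, against 46.9, 43.4 and 36.9 CPM in controls (log2 fold change -0.58, SE 0.1, edgeR adjusted p = 0.0352). Of the 6 fits without 1 library only that without control replicate 3 called FILIP1L. The 1 called is a single gene, 6.25% of the 16, against 3.38% of all tested genes. These 16 genes had a median log2 fold change of -0.29, against 0 over all tested genes. That median includes CNN1 and MYL9 (log2 fold changes -1.47 and -1.4), which stood at no more than 0.406 and 0.522 CPM in any library. Their counts were 0 to 21 and 0 to 27, and a median without them was not computed. At an unadjusted edgeR p under 0.05, 2 of the 16 were higher and 5 lower, beside 20.4% of all tested genes in either direction. The actin gene ACTB stood at 1960, 1920 and 1630 CPM with 6-shogaol, against 2450, 2220 and 2430 CPM in controls (edgeR adjusted p = 0.071), and ACTG1 at 1200, 1200 and 1230 CPM, against 2000, 1550 and 1400 CPM in controls (edgeR adjusted p = 0.112). Neither passed in edgeR, and DESeq2 called both lower (adjusted p = 0.0082 for ACTB and 0.0179 for ACTG1). CNN2, a calponin, stood at 99.2, 109 and 80.9 CPM with 6-shogaol, against 111, 204 and 117 CPM in controls (edgeR adjusted p = 0.24), control replicate 2 alone being high. SRF itself had a log2 fold change of -0.1 (edgeR adjusted p = 0.564).

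The annotation in the authors' deposited table places 154 genes in the KEGG Hippo signaling pathway, several members among them. Of 126 tested, 4 were called higher and 3 lower (5.56%, against 3.38% of all genes), and their median log2 fold change was -0.05. Called genes besides TGFB2 and TEAD2 included YWHAB, DLG1, ID1 and FZD5, which are named here after their values were seen. YWHAB (ENSG00000166913, chromosome 20, 44885702 to 44908532) encodes 14-3-3 beta, of the family that binds phosphorylated YAP1 and holds it in the cytoplasm. It rose to 170, 199 and 202 CPM with 6-shogaol, against 85.8, 90.9 and 93.0 CPM in controls, so that every treated library was far above every control. The log2 fold change of YWHAB was 1.08 (SE 0.09, edgeR adjusted p = 0.00472), and without 1 library it ran from 1.04 to 1.16 and stayed called in all 6 fits (edgeR adjusted p from 0.00527 to 0.0379). With replicate number as a block the YWHAB value was again 1.08 but was not called (edgeR adjusted p = 0.0541). The other 14-3-3 genes, YWHAE, YWHAG, YWHAH, YWHAQ, YWHAZ and SFN, had log2 fold changes of -0.05, -0.14, -0.09, 0.14, -0.23 and 0.49, and edgeR called 0 of them (adjusted p from 0.217 to 0.829). Per length YWHAB, at 18.7, 21.1 and 21.7 FPKM with 6-shogaol and 9.07, 9.61 and 9.95 FPKM in controls, was below YWHAE, YWHAG, YWHAH, YWHAQ and YWHAZ in every library. DLG1, a junction scaffold, had a log2 fold change of 0.46 (edgeR adjusted p = 0.039), the HLH inhibitor ID1 of 0.4 (0.0197) and the Wnt receptor FZD5 of -0.43 (0.0484). Of the 6 fits without 1 library DLG1 and ID1 were called in 1, that without 6-shogaol replicate 1, and FZD5 in none (edgeR adjusted p from 0.0715 to 0.154), and with the block edgeR called none of the 3 (adjusted p = 0.141 for DLG1, 0.13 for ID1 and 0.174 for FZD5).

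Genes with profiles most like those of the readouts were sought among 11721 others with a mean of at least 5 CPM, by the root mean square difference of centred log2 CPM over the 6 libraries. Nearest to ANKRD1 were MT-TV, a mitochondrial tRNA gene (0.0337), NTN4, a netrin (0.0403), and SOX18, a transcription factor (0.0437), with log2 fold changes of -0.56, -0.58 and -0.56. Genes were picked by closeness over these same libraries, so fold changes near that of ANKRD1 follow from the choice. Nearest to CCN1 were SENP2, NAT1 and EMC4 (0.0328, 0.0398 and 0.0409), and nearest to CCN2 were PLGRKT, STXBP5 and DEPDC1B (0.0176, 0.0193 and 0.0208).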

How the data were processed

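Total RNA of U251 cells was extracted with Trizol and made into libraries with a SMARTER mRNA-Seq kit, per the labels' protocols. The authors deposited raw counts per gene and FPKM values, per the file headers. The submitters' processing notes name the mouse builds GRCm38 and mm10, but all 60612 identifiers are human, and 58394 of them are in GENCODE 29 on GRCh38. Of these 99.8% overlap their GENCODE 29 position and 72.6% have the same start and end. Coordinates of genes are printed as deposited, and for 9 of the 10 members an end differs from GENCODE 29, by at most 885 bases, so exon overlaps may differ from those of the annotation used in counting. The aligner, counting tool and strand setting are not given in the sources used here. Counts were tested over all genes in R 4.3.3 with edgeR 4.0.16 (filterByExpr, TMM, glmQLFit and glmQLFTest, Benjamini-Hochberg threshold 0.05), which left 19279 genes. Standard errors were derived from the F statistic and the fold change. Libraries of one group were compared by chi-square on their counts (31.3 to 63.7 per degree of freedom), and none was a copy. The totals of 43516840 to 60018999 counts mean that a count of 0 allows up to 0.05 to 0.0689 CPM (3 counts, counting error only). Alternatives were other scalings, DESeq2 1.42.0, other filters, a replicate block, fits without 1 library, and limma 3.58.1 on FPKM (log2 after adding 1 or 0.1, keeping genes at 1 FPKM or more in 3 libraries, or keeping all). The scripts were tested on simulated data. Exon overlap used GENCODE 29 and neighbouring genes averaging 10 counts or more. Outside the 10 members, the text names every called gene of 5 lists, the 2 largest changes per list at a mean of at least 5 CPM, ACTB and ACTG1, and for ANKRD1, CCN1 and CCN2 the 3 nearest profiles. Of the genes this rule named, 1 is not reported here. AMOT, TEAD3, SRF, MAP4K4 and the KEGG and 14-3-3 genes were named after their values were seen. The members and lists were chosen with earlier results of these data known.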

Additional observations from a re-analysis of the deposited data

How the results depend on the processing

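ANKRD1 had the same direction in all 15 alternatives and was past the threshold in 7. It was not called with no filter on low counts (log2 fold change -0.56, edgeR adjusted p = 0.0608), with the replicate block (-0.56, 0.15) or without any 1 library (-0.62 to -0.51). The members called lower therefore numbered 0 with no filter and with the block, and 0 to 1 without 1 library, the 1 being AMOTL2 without 6-shogaol replicate 1 (-0.73 to -0.26 over these fits). No member was called higher in any alternative. 2 near-zero values turned sign with no call. WWTR1 was 0.01 in limma on FPKM under each pseudocount and filter, and -0.05 to 0.02 without 1 library. LATS2 was 0.02 in the 3 limma fits, 0.002 with the block and -0.09 to 0.07 without 1 library. Genes called higher and lower over the whole table numbered 932 and 934 in DESeq2, 183 and 195 with no filter, 157 and 115 in limma with no filter, 3 and 0 with the replicate block, and 44 to 480 and 54 to 532 without 1 library, the upper ends without 6-shogaol replicate 1. DESeq2 called 9.68% of all tested genes. Of the lists it called 1 of 17 Hippo kinases and scaffolds lower, and of 10 tested junction regulators 1 higher and 1 lower. It called 2 of 5 tested TEAD or VGLL genes lower, 6 of 21 other targets higher and 5 lower, and 4 of 16 cytoskeletal targets lower. The block left 0 called in every list. With no filter 0 TEAD or VGLL genes and 1 other target were called lower. Limma with no filter called 0 TEAD or VGLL genes and 0 cytoskeletal targets lower, and 1 other target in each direction, while limma on log2(FPKM + 0.1) called 4 other targets higher. Without 1 library the lists ran from 0 to 1 kinase or scaffold lower (MAP4K4), stood at 0 TEAD or VGLL genes lower, ran from 1 to 2 other targets higher and 0 to 4 lower, and from 0 to 1 cytoskeletal target lower. The cause of these differences was not tested. The labels do not say whether the replicate numbers pair the samples. Deviations from the group means of same-numbered libraries correlated at -0.03, 0.06 and -0.04. Of the 3 treated libraries 1 correlated best with the control of its own number. These values gave no sign of pairing, but with 3 libraries per group they cannot exclude a shared culture or batch. RLE and upper-quartile scaling moved the median of all genes by at most 0.01 on the log2 scale in size. TEAD4, with as few as 164 counts in a library (counting error 7.81%), was the member most limited by depth.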
